A study of Mus musculus with 3 samples.

Results

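The stem cells (SCs) of the mouse pituitary intermediate lobe (IL) were described here as the cell barcodes in which transcripts of the SC markers Cyp2f2, Lcn2, Mia, Cpxm2, Rbpms, Ednrb and Folr1 were seen together. A barcode was chosen by its counts of these genes: it needed at least 1 unique molecular identifier (UMI, which stands for 1 captured transcript) in at least 3 of the 7 markers, and UMIs in at most 1 of 5 genes of other cells, namely C1qa and C1qb of macrophages, Plvap of endothelial cells, and Dcn and Scn7a. The rule found 305 of 9661 barcodes. These were 130 of 2020 barcodes in WT, which is 6.44% (exact 95% binomial interval 5.40 to 7.60), 105 of 4153 in P27NULL, which is 2.53% (2.07 to 3.05), and 70 of 3488 in S2CK, which is 2.01% (1.57 to 2.53). All barcodes that did not meet the rule in the same library are called the other barcodes.

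Pituitary SCs are epithelial cells that line the cleft between the lobes. They express the transcription factors SOX2 and SOX9, can give rise to endocrine cells, and are also a source of signals to their neighbours. In the IL they lie beside the melanotrophs, which make the hormone precursor POMC and contain SOX2 as well, but lack SOX9.

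The data were 3 droplet libraries of dissected ILs, dissociated with papain and pooled over animals that were 3 months old, with 1 library per genotype. WT carried Sox9iresCreERT2/+, an allele that expresses a tamoxifen-activated Cre recombinase from the Sox9 locus, so that recombination is directed to cells that express Sox9. P27NULL carried the same allele and p27-/-, the loss of the cell cycle inhibitor encoded by Cdkn1b. S2CK carried both and Sox2fl/+, in which 1 copy of Sox2 can be deleted by Cre. The labels give tamoxifen by gavage to all 3 groups at 4 weeks of age, whereas the study's text places induction at birth. The study describes a Rosa26ReYFP/+ reporter in all groups, males in the WT pool and both sexes in the other pools. With 1 library per genotype and members chosen by their own counts, no comparison below was tested. Intervals are exact, at 95%, and cover counting error only, except those of list medians, which are rank intervals over the genes of a list.

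The members held 482827 UMIs in WT, 425462 in P27NULL and 464722 in S2CK, or 5.79%, 2.73% and 2.42% of all UMIs of each library. Median UMIs per member were 2027, 2442 and 3463.5, against 3689, 2742 and 4915.5 in the other barcodes, and the members' own range was 607 to 22173, 1035 to 29722 and 1016 to 32335. Barcodes of WT started at 502 UMIs and those of P27NULL and S2CK at 1005 and 1002, so the lower limit of the tables differed between libraries; after each cell was thinned to 1000 UMIs, the members' share was 5.22% in WT and 1.73% in P27NULL. Mitochondrial transcripts made up a median of 5.31%, 5.08% and 8.10% of a member's UMIs. The libraries shared 2 to 4 barcodes by pair, none of them between members. Transcripts of Cdkn1b were still counted in the library labelled P27NULL, which is why that library is named by its label only: members had 64.2, 77.6 and 21.5 CPM (31, 33 and 10 UMIs) in WT, P27NULL and S2CK, and other barcodes 39.9, 32.7 and 17.6 CPM. Xist, transcribed in female cells, was seen in 0 members of WT, 18 of P27NULL and 62 of S2CK, so sex and genotype cannot be told apart in comparisons between libraries. The 130, 87 and 8 members without a Xist UMI are called male below. Only 29, 15 and 0 of them had a UMI of a Y-linked gene, so female cells in which Xist was missed can be among them.

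The marker genes of the rule are given as a description. Mia, a small secreted protein, was the most abundant of them at 6841 CPM in WT members, 4351 CPM in P27NULL members and 2300.3 CPM in S2CK members, and was seen in 96.9%, 97.1% and 95.7% of members in WT, P27NULL and S2CK. The RNA-binding protein gene Rbpms was seen in 88.5%, 86.7% and 82.9%, the cytochrome P450 gene Cyp2f2 in 75.4%, 70.5% and 91.4%, and Folr1, a folate receptor, in 75.4%, 67.6% and 92.9%. Lcn2, which encodes a secreted iron-scavenging protein, was seen in 75.4%, 62.9% and 68.6%, the endothelin receptor gene Ednrb in 53.1%, 46.7% and 62.9%, and Cpxm2, of the carboxypeptidase family, in 38.5%, 36.2% and 68.6%. A member had a median of 5, 5 and 6 of the 7 markers, and 19, 14 and 26 members had all of them.

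Sox2 and Sox9, which the rule did not use, were both higher in members than in other barcodes of all 3 libraries. Sox2 (chr3:34649995-34652461, GRCm38) was at 278 CPM in WT members, 263 CPM in P27NULL members and 142 CPM in S2CK members, against 48.2, 41.1 and 25.5 CPM in the other barcodes, where CPM scales a gene's UMIs to the summed UMIs of the same cells. The ratios of members to other barcodes were 5.76 (4.70 to 7.04), 6.41 (5.19 to 7.85) and 5.58 (4.25 to 7.23). Sox9 (chr11:112782210-112787757) was at 78.7 CPM in WT members, 113 CPM in P27NULL members and 101 CPM in S2CK members, against 3.57, 3.63 and 4.15 CPM, with ratios of 22.1 (13.2 to 37.3), 31.1 (20.7 to 46.7) and 24.3 (16.6 to 35.4). Both genes were above the other barcodes in each library with intervals that exclude 1, and Sox9 separated members from the remaining cells by the larger ratio. In single cells detection was incomplete: 59.2%, 52.4% and 45.7% of members had a Sox2 UMI, against 15.98%, 12.97% and 12.1% of other barcodes, and 17.7%, 29.5% and 35.7% had a Sox9 UMI, against 1.32%, 1.21% and 1.76%. When each cell was thinned to 1000 UMIs these shares became 32.8%, 23.8% and 11.4% for Sox2 and 8.20%, 9.52% and 4.29% for Sox9.

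Barcodes just inside the rule differed from those just outside it in Sox2 and Pcsk2, which is given with no test. Among barcodes with 2 markers that met the limit on the other genes (28 in WT, 32 in P27NULL and 23 in S2CK), Sox2 was at 16.9, 52.8 and 26.9 CPM from 2, 7 and 3 UMIs. Among members with 3 markers (23, 27 and 5) it was at 416, 191 and 134 CPM from 15, 14 and 1 UMIs. Pcsk2, the prohormone convertase of melanotrophs, went the other way, from 1949, 1072 and 1383 CPM at 2 markers to 111, 790 and 268 CPM at 3. Sox9 was too sparse here to separate the groups in every library. It had 1, 1 and 3 UMIs at 2 markers and 1, 9 and 0 UMIs at 3 in WT, P27NULL and S2CK. In S2CK it was thus lower just inside the rule. Groups of members with a given number of markers held 5 to 36 cells, and in S2CK the groups with 3 to 6 markers held under 20 cells each. The limit on genes of other cell types kept out 10, 3 and 8 barcodes with at least 3 markers.

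**Figure D1:**
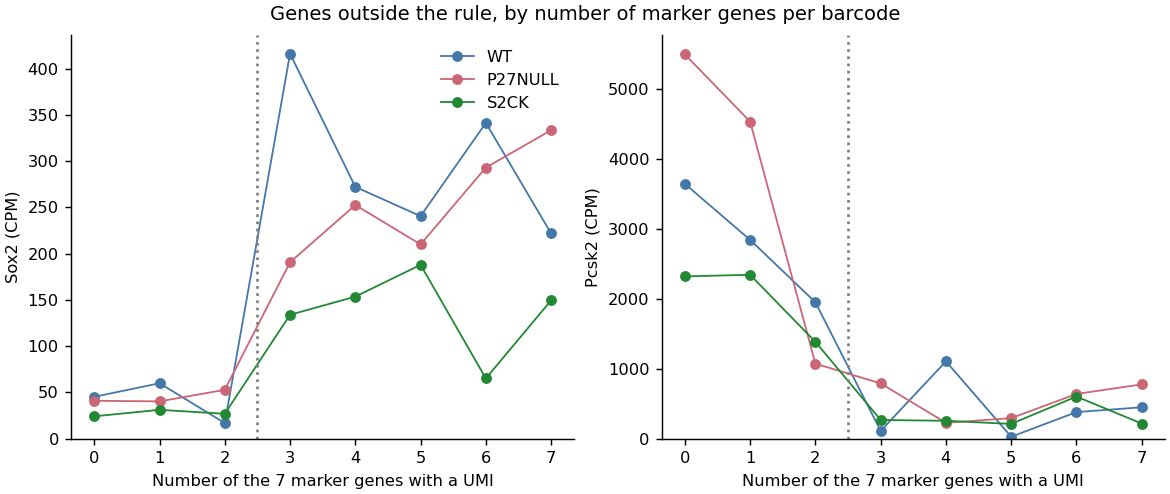
CPM of Sox2 (left) and Pcsk2 (right) in barcodes that met the limit on genes of other cells, by the number of the 7 marker genes with a UMI, for WT, P27NULL and S2CK; the dotted line is the rule's limit of 3. Sox2 lay at 16.9 to 60.0 CPM at 0 to 2 markers and at 65.1 to 416 CPM at 3 to 7, while Pcsk2 was at 1072 CPM or more at 0 to 2 markers and at 1105 CPM or less at 3 to 7.

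Some members also carried transcripts of other cells, and doublets were not removed. Members were marked by 6 other cell types: melanotrophs, gonadotrophs, Pou1f1-lineage cells, macrophages, endothelial cells and connective tissue. At least 1 of these types with at least 2 of its markers was seen in 21 members of WT, 20 of P27NULL and 14 of S2CK. They held 39.1%, 44.7% and 36.9% of the members' UMIs. The pericyte list was not used for this mark. Members that carried pericyte markers alone are therefore kept in all values given without the marked members. These members were deep, with median UMIs of 9013, 6204 and 11428.5, against 1934, 2162 and 2947.5 in the rest. Gonadotroph markers marked 5, 10 and 0 members, and the 5 and 10 held 98.6% and 99.6% of the members' UMIs of Cga, the hormone alpha subunit. Melanotroph markers, here a set of 6 genes (Pax7, Oacyl, Megf11, Rbfox3, Drd2 and Esm1), marked 8, 11 and 7 members, against 53.7%, 66.7% and 77.2% of the other barcodes. On the list of 8 melanotroph genes, 9, 18 and 10 members had at least 2. Some of these can therefore remain in values given without the marked members. The pericyte list was summed at 106, 167 and 284 CPM in members against 18.5, 16.6 and 13.5 CPM in other barcodes, with 7, 5 and 6 members that had at least 2 of its markers and Kcnj8 at 0 in P27NULL and S2CK members. The connective tissue list was at 66.3, 21.2 and 55.9 CPM against 36.3, 19.3 and 19.3 CPM, with 2, 1 and 1 such members and Pdgfra at 0 in members of all 3 libraries. The macrophage list was summed at 26.9, 7.05 and 90.4 CPM in members against 649, 287 and 276 CPM in other barcodes, and the endothelial list at 45.6, 35.3 and 2.15 CPM against 104, 25.1 and 43.2 CPM. The rule itself limits genes of these cells, and the barcodes it kept out count among the other barcodes. These values therefore partly follow from the rule and are no check of it. Red blood cell genes were at 0 UMIs in members of all 3 libraries. The pituicyte list was summed at 6.21, 9.40 and 21.5 CPM in members, from 3, 4 and 10 UMIs. It was at 33.0, 29.5 and 29.0 CPM in other barcodes. Of its genes, the factors Nkx2-1 and Lhx2 were at 0 in members of all 3 libraries. Without the marked members the ratio to other barcodes moved by over 1.5 times upward in P27NULL for Aldh1a2 (to 295), Degs2 (258), Hs3st1 (199), Tgfb2 (193), Dkk3 (99.2), Yap1 (83.8), Id1 (62.5), Anxa3 (43.0), Krt18 (27.8), Ldhb (26.9) and Ccnd1 (10.04), and in WT for Heyl (53.4). It moved by over 1.5 times downward in P27NULL for Lama3 (to 12.9), Cdkn1b (1.56) and S100a4 (0.427). Other genes described below that moved as far included Hopx, Spp1, Wnt4, Igfbp2, C3 and genes of hormones, granules and vesicles. The part of these transcripts in the ratios was not tested.

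Members were compared with the other barcodes of the same library, to describe the genes that set these cells apart. A gene was compared when it had 10 UMIs in members or was expected to have 10 from its level in the other barcodes. In WT 1489 of 6794 genes (21.9%) were at least 2-fold higher and 621 (9.14%) at least 2-fold lower. In P27NULL these were 1369 of 6544 (20.9%) and 564 (8.62%), and in S2CK 1503 of 6385 (23.5%) and 717 (11.2%). Of 5537 genes compared in all 3 libraries, 752 (13.6%) were higher and 295 (5.33%) lower in all 3. A gene that reached 10 UMIs only in members had to be higher, so counts are also given for genes expected to reach 10 UMIs in members from their level over the whole library, where 203 of 4441 (4.57%) were higher and 283 (6.37%) lower in all 3. Without the members marked by other cell types 617 of 3667 (16.8%) were higher in all 3, of which 545 were among the 752. The median log2 ratio over all genes compared was 0.28, 0.23 and 0.18, and moved to -0.08, -0.13 and -0.08 with trimmed mean of M-values (TMM) factors. The split of genes moved with it, to 1115 higher and 1089 lower in WT, 1026 and 1002 in P27NULL, 1257 and 1043 in S2CK, and 607 and 482 in all 3.

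The 20 genes with the largest ratios outside the rule, ranked by the lowest of their 3 ratios, were genes of small-molecule and lipid metabolism, secreted proteins and epithelial contacts. Agr3 (chr12:35925621-35949737), of the disulfide isomerase family of the secretory pathway, led with 182 CPM in WT members, 141 CPM in P27NULL members and 90.4 CPM in S2CK members, against 1.78, 0.989 and 0.692 CPM in other barcodes, and ratios of 102 (57.8 to 195), 143 (79.9 to 270.3) and 131 (68.7 to 265). Degs2 (chr12:108686792-108702306), a sphingolipid desaturase, was at 64.2, 56.4 and 55.9 CPM against 0.764, 0.330 and 0.373 CPM. It was found in 17.7%, 20% and 28.6% of members and 0.212%, 0.124% and 0.117% of other barcodes. Gm266, an uncharacterised gene, was at 261, 162 and 105 CPM against 4.59, 0.330 and 1.28 CPM. Mgst1, Cryab and Pla2g7 had the most UMIs of the 20.

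Mgst1, a microsomal glutathione transferase, was at 1087 CPM in WT members, 740.4 CPM in P27NULL members and 785 CPM in S2CK members, against 29.9, 5.67 and 10.8 CPM, with ratios of 36.3 (31.1 to 42.5), 131 (103 to 168) and 73.0 (61.3 to 87.1). Cryab, a small heat shock protein, was at 872, 585 and 859 CPM against 26.0, 9.36 and 14.3 CPM, and Pla2g7, which hydrolyses platelet-activating factor, at 599, 484 and 417 CPM against 13.2, 5.67 and 8.84 CPM. These 3 transcripts reached most members: Mgst1 was seen in 91.5%, 80.0% and 87.1%, Cryab in 74.6%, 67.6% and 81.4% and Pla2g7 in 74.6%, 73.3% and 71.4%. Hs3st1, which sulfates heparan sulfate, had ratios of 46.9, 126 and 113. Plat, tissue plasminogen activator, was at 271, 242 and 252 CPM against 7.90, 4.68 and 5.86 CPM, and Phgdh, the first enzyme of serine synthesis, at 213, 179 and 198 CPM against 5.86, 1.91 and 1.54 CPM. Members of every library were thus above other barcodes by 34.4-fold or more for Plat and 36.4-fold or more for Phgdh. The dehydrogenase gene Bdh2 had ratios of 39.9 to 54.7. Epithelial genes among the 20 were Cldn8, a claudin of tight junctions, with 34.0 to 55.1, and Mpzl2, an adhesion protein, with 35.5 to 143. Fam107a, an actin-associated protein, had ratios of 33.9 (22.5 to 51.9), 435 (176 to 1387) and 50.1 (34.0 to 74.2). Its level was 155, 143 and 133 CPM in members and 4.59, 0.330 and 2.66 CPM in other barcodes.

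**Figure D2:**
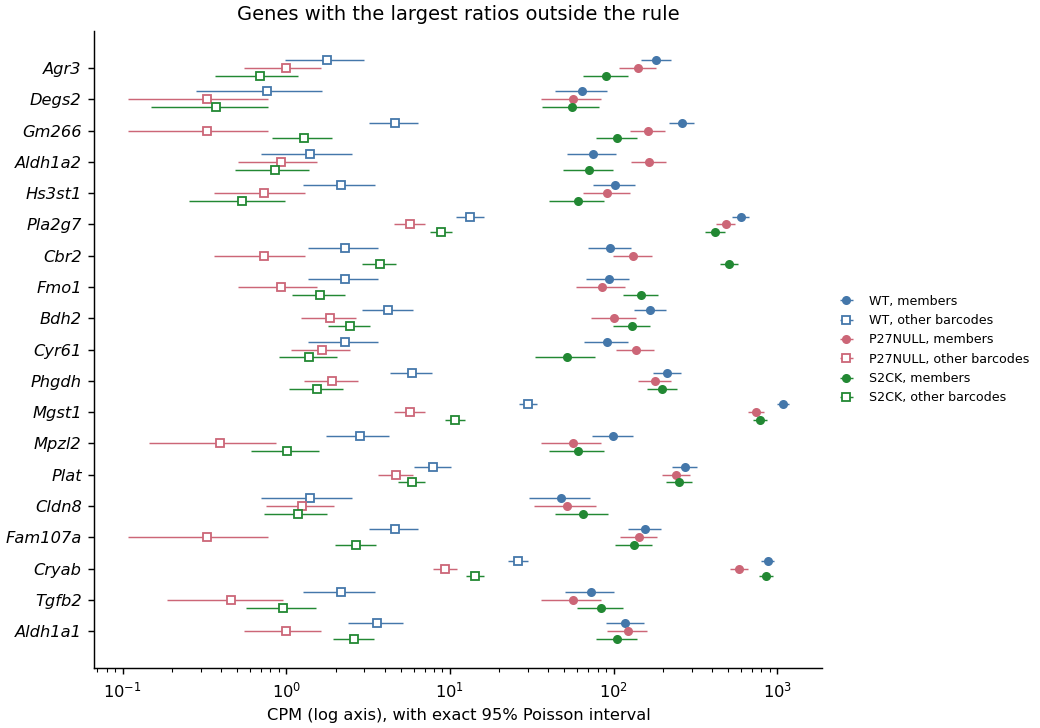
CPM on a log axis of 19 of the 20 genes with the largest ratios outside the rule, in members (filled) and other barcodes (open) of WT, P27NULL and S2CK, with exact 95% Poisson intervals. Members lay between 47.6 and 1087 CPM and other barcodes between 0.330 and 29.9 CPM, with no overlap of their intervals within a gene, as the ranking by ratio fixes.

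The 20 genes, which the rule did not name, were also seen together in single members. A member had a median of 7, 7 and 8 of them, and 95.4% (90.2 to 98.3), 92.4% (85.5 to 96.7) and 97.1% (90.1 to 99.7) of members had at least 3. Only 1, 2 and 1 members had none. Of the other barcodes with 0 or 1 marker, 0.974%, 0.324% and 0.473% had at least 3. The other barcodes with 2 markers were between these, with a median of 1 and with 12.5%, 21.2% and 37.5% at 3 or more. Both sets of genes were chosen on these same cells, so the shares describe how the genes occur together and are no test of the rule.

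Promoter sequence was looked at for the genes of this set and of the YAP and TEAD list, since Cyr61, a matrix-associated protein and a classical target of the cofactor YAP with TEAD factors, was among the 20. Windows of 250 bases before to 50 bases after the start of transcription were taken from RefSeq (GRCm38.p6), where 14 of the 20 genes had one. The TEAD core GGAATG or its reverse complement CATTCC was in 16.6% of 27025 genes, in 4 of the 14 genes and in 9 of 10 genes of the YAP and TEAD list that had a window, a list drawn up from parts and known targets of that pathway. The SOX core ACAATG or CATTGT was in 14.3% of genes and in 0 of the 14. A core of the antioxidant response element, TGACNNNGC or GCNNNGTCA, was in 13.99% of genes, 6 of the 14 and 3 of 37 genes of the detoxification list. A match describes letters, not a bound site. Stretches around the TEAD core are given here for 2 genes of the 20 and 2 of the list, with the core in capitals, written along the gene from 5′ to 3′. They lie at chr3:145650072-145650099 (minus strand) for Cyr61, chr12:35925544-35925571 (plus strand) for Agr3, chr9:102717728-102717755 (plus strand) for Amotl2 and chr9:8004721-8004748 (minus strand) for Yap1.
Cyr61: gcgccaaccaaCATTCCtgagatgtttg
Agr3: gcatgagaactGGAATGaaaccaagttc
Amotl2: tgaaactctcaCATTCCtggcatagcag
Yap1: gggagtctgcaGGAATGtagcgacgcgc

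Cyr61 was at 91.1 CPM in WT members, 136 CPM in P27NULL members and 51.6 CPM in S2CK members, against 2.29, 1.65 and 1.38 CPM in other barcodes, with ratios of 39.7 (22.5 to 73.1), 82.7 (50.9 to 138) and 37.3 (20.5 to 67.6). Of the YAP and TEAD list, 3 of 13 genes were compared in all 3 libraries and Cyr61 and Axl, a receptor tyrosine kinase, were higher in all 3, beside 13.6% of all genes. Yap1 itself had 9, 14 and 19 UMIs in members and ratios of 16.3 (5.72 to 46.2), 49.9 (20.6 to 126) and 128 (49.1 to 391), and Amotl2, an inhibitor of YAP, had 7, 15 and 18 UMIs and ratios of 4.38, 5.14 and 8.36. Both had too few UMIs in WT to be compared there. With the minimum set from the whole library no gene of this list was higher in all 3, and Axl was lost without the marked members.

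Of the 21 transcription factors listed for pituitary SCs and epithelium, 11 were compared in all 3 libraries and 8 of them were higher in all 3, beside 13.6% of all genes. With the minimum set from the whole library this was 5 of 8, beside 4.57% of all genes. Nfib, of the nuclear factor I family, was at 261 CPM in WT members, 279.7 CPM in P27NULL members and 312 CPM in S2CK members, against 46.6, 42.5 and 36.2 CPM, with ratios of 5.597 (4.53 to 6.87), 6.58 (5.36 to 8.01) and 8.63 (7.16 to 10.3). Klf4, a factor of epithelial and pluripotent cells, was at 35.2, 98.7 and 47.3 CPM against 4.59, 3.30 and 1.60 CPM, with ratios of 7.68 (4.04 to 14.03), 29.9 (19.4 to 46.0) and 29.6 (16.3 to 53.1). Elf3, an epithelial ETS factor, was at 51.8, 68.2 and 121 CPM against 11.2, 11.7 and 9.75 CPM. Klf4 was highest in P27NULL members and Elf3 in S2CK members. Nfib had its highest CPM in S2CK members, but its log2 ratio of S2CK to P27NULL was 0.16 (-0.20 to 0.52). That ratio turned to -0.12 (-0.56 to 0.33) without the marked members. Zbtb20, a zinc finger repressor, had ratios of 2.01, 2.12 and 2.49, and was at 1.85 in WT without the marked members.

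Of 23 genes of epithelial junctions, 17 were compared in all 3 libraries and 13 were higher in all 3, beside 13.6% of all genes (2 of 4 with the minimum set from the whole library, beside 4.57%). Without the marked members 10 of 11 were higher, beside 16.8% of all genes, and Cdh1, Cldn6 and Dsp were among those no longer called. The claudins of tight junctions differed among themselves. Cldn7 was at 576 CPM in WT members, 517 CPM in P27NULL members and 510.0 CPM in S2CK members, against 51.2, 43.9 and 15.0 CPM, and Cldn3 at 493, 357 and 467 CPM against 102, 102 and 92.8 CPM, so Cldn3 was the less specific of these, with ratios of 4.82, 3.50 and 5.03. Cldn4 was low in other barcodes, at 3.69, 0.660 and 0.852 CPM, and reached 74.6, 51.7 and 112 CPM in members, with ratios of 20.2 (12.03 to 34.1), 78.4 (35.6 to 185) and 131 (73.8 to 246). Cdh1, the adhesion protein E-cadherin, was at 37.3, 30.6 and 49.5 CPM against 2.42, 0.660 and 1.38 CPM, and Dsp, of desmosomes, at 68.3, 44.7 and 32.3 CPM against 7.01, 4.35 and 2.08 CPM. Epcam was shared with the other cells: it was at 1404, 1123 and 1657 CPM against 603, 634 and 739 CPM, with a UMI in 91.5%, 89.5% and 98.6% of members and 72.3%, 76.7% and 88.7% of other barcodes.

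Of 10 genes of intermediate filaments, Krt7, Krt8, Krt18 and Vim were compared in all 3 libraries and all 4 were higher in each, beside 13.6% of all genes (2 of 2 with the minimum set from the whole library, beside 4.57%). Krt18, a keratin of simple epithelia, was among the most abundant SC transcripts at 1864 CPM in WT members, 1302 CPM in P27NULL members and 1979.7 CPM in S2CK members, against 107, 70.9 and 81.9 CPM, with ratios of 17.4 (15.8 to 19.1), 18.4 (16.5 to 20.4) and 24.2 (22.3 to 26.3). Its partner Krt8 was counted at 379, 256 and 417 CPM against 49.2, 32.4 and 40.4 CPM. Krt18 was seen in 89.2%, 93.3% and 94.3% of members, and in 24.4%, 18.6% and 27.4% of other barcodes. Vim, a filament of mesenchymal and progenitor cells, was at 209, 125 and 73.2 CPM against 21.4, 9.83 and 12.9 CPM.

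Cells read Notch signals through receptors such as NOTCH2 and answer with the repressors HES1, HEY1, HEY2 and HEYL. Of 14 listed genes, 6 were compared in all 3 libraries, and the receptor Notch2 and the targets Hes1, Hey1, Hey2 and Heyl were higher in all 3, beside 13.6% of all genes, while the ligand gene Dll3 was lower. Hes1 was at 414 CPM in WT members, 776 CPM in P27NULL members and 491 CPM in S2CK members, against 17.6, 10.8 and 9.002 CPM, with ratios of 23.6 (18.9 to 29.5), 71.7 (59.3 to 87.0) and 54.5 (44.5 to 66.9). It was seen in 50%, 65.7% and 67.1% of members. Hey1 was at 87.0, 106 and 64.6 CPM against 5.99, 2.77 and 1.92 CPM, and Hey2 and Heyl had ratios of 37.9, 107 and 70.7 and 35.2, 89.1 and 22.2. Notch2 was at 195, 119.9 and 278 CPM against 31.5, 13.5 and 23.7 CPM, with ratios of 6.19 (4.83 to 7.88), 8.87 (6.39 to 12.1) and 11.7 (9.55 to 14.3). Dll3, named after its values were seen, had 0, 7 and 5 UMIs in members, and its ratios were 0.336 and 0.227 in P27NULL and S2CK and at most 0.149 in WT, from a floor of 3 UMIs. With the minimum set from the whole library only Dll3 was compared, since the targets were near 0 outside the members. Without the marked members 4 of 5 genes compared were higher, beside 16.8% of all genes, and Hey2 was lost, with 7 UMIs left in WT.

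Growth factor and cytokine receptors were compared for 7 of 20 genes, and Fgfr1, Met, Ddr1 and Il6st were higher in all 3 libraries, beside 13.6% of all genes (1 of 4 with the minimum set from the whole library, beside 4.57%). Fgfr1, a receptor of fibroblast growth factors, was at 80.8 CPM in WT members, 82.3 CPM in P27NULL members and 125 CPM in S2CK members, against 5.73, 2.77 and 2.77 CPM, with ratios of 14.1 (8.94 to 22.1), 29.7 (18.4 to 47.6) and 45.1 (30.5 to 66.8). Met, the receptor of hepatocyte growth factor, had 13, 13 and 17 UMIs and ratios of 14.1, 57.9 and 57.2, and was too sparse to be called without the marked members. Ddr1, a collagen receptor, was at 72.5, 87.0 and 105 CPM against 31.5, 34.7 and 26.0 CPM, and Il6st, the shared subunit of interleukin-6 family receptors, at 70.4, 58.8 and 99.0 CPM against 14.8, 15.6 and 15.0 CPM. The last 2 genes were also expressed outside the members, with ratios of 2.30 to 4.05 and 3.76 to 6.61.

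In the Wnt and Hedgehog list 7 of 9 genes compared, of 24 listed, were higher in all 3 libraries, beside 13.6% of all genes. They comprised the secreted modulators Sfrp5 and Dkk3, the Wnt receptors Fzd2 and Fzd7, the R-spondin receptor Lgr4, the nuclear effector Tcf7l2 and the Hedgehog receptor Ptch1. Sfrp5, an antagonist of Wnt ligands, was at 130.5 CPM in WT members, 167 CPM in P27NULL members and 28.0 CPM in S2CK members, against 2.04, 1.58 and 0.746 CPM, with ratios of 64.0 (36.5 to 119), 105 (65.6 to 175) and 37.5 (16.2 to 86.0). Dkk3 was at 55.9, 54.1 and 92.5 CPM against 2.42, 0.857 and 1.65 CPM. Fzd7 had 20, 16 and 20 UMIs and ratios of 36.1, 40.7 and 89.8, and Fzd2 16, 14 and 28 UMIs and ratios of 12.4, 26.3 and 27.6. Lgr4 was at 74.6, 54.1 and 75.3 CPM against 9.68, 8.57 and 11.1 CPM, and Tcf7l2 at 47.6, 56.4 and 49.5 CPM against 5.61, 2.24 and 1.17 CPM. Modulators, receptors and an effector of the pathway were therefore all represented in members. Ptch1 had the lowest ratios, 2.29, 3.52 and 2.66, and was lost without the marked members, and with the minimum set from the whole library 0 of 2 genes were higher, beside 4.57% of all genes.

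Genes of the BMP and TGF-beta pathway were higher in all 3 libraries for 6 of 7 compared, of 17 listed, beside 13.6% of all genes. Id1, Id3 and Id4 encode inhibitors of helix-loop-helix factors and are targets of BMP signals. Id4 was at 418 CPM in WT members, 341 CPM in P27NULL members and 211 CPM in S2CK members, against 73.3, 86.3 and 89.1 CPM. Id3 was at 97.3, 397 and 192 CPM against 44.5, 26.3 and 33.8 CPM, with ratios of 2.19 (1.58 to 2.98), 15.1 (12.5 to 18.1) and 5.66 (4.48 to 7.08), and Id1 at 60.1, 167 and 136 CPM against 13.1, 4.35 and 4.47 CPM, with ratios of 4.58 (2.92 to 6.97), 38.3 (27.03 to 54.4) and 30.3 (21.5 to 42.5). Id4 was highest in WT members and Id3 and Id1 in P27NULL members. Tgfb2, a ligand among the 20 leading genes, was at 72.5, 56.4 and 83.9 CPM against 2.17, 0.462 and 0.959 CPM. With the minimum set from the whole library 2 of 3 genes were higher, beside 4.57% of all genes, and Bmpr1a and Tgfbr2 were lost without the marked members.

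Of 32 secreted proteins, 19 were compared in all 3 libraries, 10 were higher and 1, Cst6, was lower in all 3, beside 13.6% and 5.33% of all genes (2 of 11 higher with the minimum set from the whole library, beside 4.57%). Clu, a chaperone found in secretions, was at 2059 CPM in WT members, 2049.5 CPM in P27NULL members and 1502 CPM in S2CK members, but was also high in the other barcodes at 917, 1042 and 417 CPM, with ratios of 2.25, 1.97 and 3.599. Igfbp5, which binds insulin-like growth factors, was at 634, 877 and 366 CPM against 71.3, 25.2 and 17.6 CPM, with ratios of 8.88 (7.70 to 10.2), 34.8 (30.1 to 40.2) and 20.7 (17.1 to 25.04). Mdk, the heparin-binding growth factor midkine, was at 342, 385 and 183 CPM against 18.1, 11.9 and 12.2 CPM, with ratios of 18.9, 32.3 and 15.0. Timp3, an inhibitor of matrix proteases, was at 226, 228 and 394 CPM against 20.3, 8.71 and 14.9 CPM. Growth factor binding, protease inhibition and a heparin-binding ligand were thus each represented at 183 CPM or more in members of every library. The chemokine genes Cxcl12 and Cxcl16 had ratios of 10.5, 10.5 and 8.32 and 7.68, 11.2 and 26.3, and Wfdc2, a protein of epithelial secretions, of 4.16, 5.90 and 14.6. Cst6, a cysteine protease inhibitor named after its values were seen, had 3, 2 and 5 UMIs in members and ratios of 0.0991, 0.0820 and 0.175.

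Of 24 genes of matrix and basement membrane, 12 were compared and 8 were higher in all 3 libraries, beside 13.6% of all genes. This became 1 of 3 with the minimum set from the whole library, beside 4.57%, and 4 of 6 without the marked members, beside 16.8%. The laminin chains Lama5 and Lamb2, parts of the sheet on which epithelia sit, were at 43.5, 51.7 and 43.0 CPM against 2.17, 2.97 and 1.86 CPM and at 66.3, 77.6 and 60.3 CPM against 5.10, 3.36 and 2.40 CPM. Lama3, a laminin chain of epithelial basement membrane, had 19, 11 and 25 UMIs and ratios of 51.5 (19.8 to 157), 19.6 (8.48 to 42.9) and 40.4 (22.3 to 73.3). It was no longer called without the marked members, along with Col4a1 and Col18a1. Cd9, a tetraspanin of the cell surface, was at 1988 CPM in WT members, 1239 CPM in P27NULL members and 1855 CPM in S2CK members, against 297, 177 and 199 CPM, with ratios of 6.68 (6.19 to 7.21), 7.02 (6.38 to 7.71) and 9.32 (8.65 to 10.0).

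Enzymes of detoxification were the longest list. Of 42 genes, 21 were compared, 13 were higher and 1 was lower in all 3 libraries, beside 13.6% and 5.33% of all genes. The 13 remained without the marked members, of 20 compared, beside 16.8% of all genes, and 7 of 15 were higher with the minimum set from the whole library, beside 4.57%. Among the glutathione transferases, Gstm1 was at 957 CPM in WT members, 792 CPM in P27NULL members and 652 CPM in S2CK members, against 41.1, 27.7 and 32.0 CPM, with ratios of 23.3 (20.1 to 26.9), 28.6 (24.7 to 33.1) and 20.4 (17.7 to 23.4). Gstm2 was at 164, 221 and 164 CPM against 8.66, 3.43 and 3.52 CPM, and Gsta4 at 507, 336 and 448 CPM against 52.2, 35.8 and 49.3 CPM. Gstm1 and Gstm2 are close paralogs, and the counting could have divided reads between them. The oxidoreductases Cbr2 and Fmo1 were at 95.3, 132 and 508 CPM against 2.29, 0.725 and 3.73 CPM, and at 93.2, 84.6 and 146 CPM against 2.29, 0.923 and 1.60 CPM. Por, the electron donor of cytochromes P450 such as the marker Cyp2f2, was at 178, 228 and 139.9 CPM against 31.5, 34.8 and 23.3 CPM, and Ephx1, an epoxide hydrolase, at 141, 125 and 125 CPM against 23.7, 29.6 and 24.0 CPM. Aldh2, the mitochondrial aldehyde dehydrogenase, had ratios of 5.03, 5.82 and 8.05. Gpx3, a secreted glutathione peroxidase named after its values were seen, was the gene that was lower, with ratios of 0.222, 0.363 and 0.116 and 7, 16 and 3 UMIs in members.

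Retinoic acid is made from retinaldehyde by ALDH1A enzymes and is sensed by receptors such as RARB. Of 17 listed genes, 3 were compared in all 3 libraries, and each was higher in all 3, Aldh1a2 and Rarb among them, beside 13.6% of all genes (1 of 1 with the minimum set from the whole library, beside 4.57%). Aldh1a2 was at 74.6 CPM in WT members, 165 CPM in P27NULL members and 71.0 CPM in S2CK members, against 1.40, 0.923 and 0.852 CPM, with ratios of 53.2 (26.5 to 116), 178 (99.5 to 343) and 83.3 (44.6 to 162), and was detected in 16.2%, 29.5% and 21.4% of members. Aldh1a1, counted in the detoxification list, was at 118, 122 and 105 CPM against 3.57, 0.989 and 2.61 CPM. Synthesis and sensing were each represented by a gene that was higher in members, but Rarb had only 12, 18 and 18 UMIs and was lost without the marked members.

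Of 17 genes of glycolysis, 15 were compared and 3 were higher in all 3 libraries (3 of 14 with the minimum set from the whole library), beside 13.6% and 4.57% of all genes, with list medians of 0.94, 0.76 and 0.85 on the log2 scale. These were Aldoc, Ldhb and Eno1, each 1 of several isoforms of its enzyme. Aldoc, the aldolase of brain, was at 822 CPM in WT members, 907 CPM in P27NULL members and 536 CPM in S2CK members, against 43.7, 26.6 and 26.3 CPM, with ratios of 18.8 (16.2 to 21.8), 34.1 (29.6 to 39.3) and 20.4 (17.4 to 23.8), whereas the general isoform Aldoa was at 625, 731 and 628 CPM against 556, 671 and 466 CPM. Ldhb, the lactate dehydrogenase subunit of oxidative tissues, had ratios of 13.1 (11.2 to 15.3), 17.1 (14.3 to 20.5) and 15.5 (13.4 to 17.8), and Eno1 of 6.44, 4.59 and 5.67; part of Eno1 reads could belong to pseudogene copies. Gapdh differed little, with ratios of 1.29 (1.18 to 1.40), 1.08 (0.985 to 1.18) and 1.18 (1.08 to 1.29).

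Lipid metabolism had 5 of 15 compared genes higher in all 3 libraries, of 25 listed (3 of 10 with the minimum set from the whole library), beside 13.6% and 4.57% of all genes, with list medians of 0.94, 1.14 and 0.76 on the log2 scale. Dbi, which binds acyl-CoA, was at 3249.6 CPM in WT members, 2141 CPM in P27NULL members and 3025 CPM in S2CK members, against 326, 283 and 411 CPM, with ratios of 9.98 (9.37 to 10.6), 7.58 (7.05 to 8.14) and 7.37 (6.95 to 7.80). Acsl3, which activates fatty acids, was at 199, 167 and 88.2 CPM against 32.0, 32.3 and 23.3 CPM, and Acadm, of fatty acid oxidation, at 118, 110.5 and 127 CPM against 35.0, 35.3 and 41.5 CPM. Fads1 and Cpt1a, the remaining 2, were lost without the marked members.

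Transport proteins for ions and water were higher in all 3 libraries for 7 of 9 genes compared, of 24 listed (3 of 5 with the minimum set from the whole library), beside 13.6% and 4.57% of all genes. Atp1b1, a subunit of the sodium pump, was at 642 CPM in WT members, 691 CPM in P27NULL members and 689 CPM in S2CK members, against 114, 139.6 and 118 CPM, with ratios of 5.64, 4.95 and 5.83. The pump regulators Fxyd1 and Fxyd3 had larger ratios. They were at 143, 96.4 and 155 CPM against 10.4, 4.22 and 3.73 CPM and at 97.3, 37.6 and 114 CPM against 0.764, 0.396 and 1.28 CPM, with ratios of 127 (54.3 to 365), 95.04 (35.3 to 297) and 89.2 (54.1 to 151) for Fxyd3. Aqp4, a water channel, was at 55.9, 37.6 and 51.6 CPM against 0.892, 0.462 and 0.905 CPM, with ratios of 62.7 (26.6 to 171), 81.5 (31.7 to 234) and 57.0 (29.4 to 113).

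S100 proteins, which bind calcium, and annexins, which bind membranes in its presence, were higher in all 3 libraries for 10 of 11 compared genes of 13 (6 of 7 with the minimum set from the whole library, and 9 of 10 without the marked members), beside 13.6%, 4.57% and 16.8% of all genes. S100a6 was at 1870.2 CPM in WT members, 1213 CPM in P27NULL members and 4499 CPM in S2CK members, against 63.6, 34.7 and 57.0 CPM, with ratios of 29.4 (26.3 to 32.9), 35.0 (30.9 to 39.6) and 78.9 (73.3 to 85.1). S100a10 was at 689.7, 468 and 824 CPM against 117, 112 and 143 CPM, and its binding partner Anxa2 at 458, 287 and 570.2 CPM against 25.7, 6.66 and 10.2 CPM, with ratios of 17.8 (14.6 to 21.6), 43.0 (32.8 to 56.6) and 56.1 (46.4 to 67.9). S100a11 was at 839, 649 and 1168 CPM against 174, 163 and 160.4 CPM. Anxa1 and Anxa3 had ratios of 9.03, 34.4 and 38.4 and 11.1, 25.5 and 37.9. S100a4 was the exception among genes named here, with ratios of 0.756, 0.944 and 5.45 from 4, 4 and 36 UMIs, so it was higher in S2CK members alone.

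Cycling cells were not found among the members at this depth. At least 2 of 10 mitotic genes were seen in 0 of 130, 0 of 105 and 0 of 70 members, with upper limits of 2.80%, 3.45% and 5.13%, against 0.423%, 0.543% and 0.410% of other barcodes. Of 24 cell cycle genes, 4 were compared in all 3 libraries and 0 were higher or lower in all 3, beside 13.6% and 5.33% of all genes. With so few genes compared, 0 is near those shares. The G1 cyclin genes differed in their pattern: Ccnd2 was at 238 CPM in WT members, 75.2 CPM in P27NULL members and 36.6 CPM in S2CK members, against 413, 116 and 18.003 CPM, and Ccnd1 at 66.3, 44.7 and 60.3 CPM against 55.0, 8.05 and 4.15 CPM. Ratios for Ccnd2 were 0.577 (0.475 to 0.695), 0.651 (0.444 to 0.922) and 2.03 (1.17 to 3.30), so members were below other barcodes in WT and P27NULL and above them in S2CK. Of 7 inhibitors of cyclin-dependent kinases, 4 were compared and 1 was higher in all 3 libraries, beside 13.6% of all genes. With the minimum set from the whole library this was 0 of 2, beside 4.57%. The 1 gene was Cdkn1c, which encodes p57. It was at 97.3, 141 and 284 CPM against 13.9, 20.7 and 16.1 CPM, with ratios of 7.01 (4.87 to 9.96), 6.81 (5.08 to 9.0002) and 17.7 (14.3 to 21.7). Cdkn2c, which encodes p18, had ratios of 1.17, 2.11 and 2.01.

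Genes of secretory granules and prohormone processing were lower in members. Of 22 listed, 19 were compared and 15 were lower in all 3 libraries, beside 5.33% of all genes, and 0 were higher, which was the same count with the minimum set from the whole library, beside 6.37% of all genes. Pcsk2 was at 429 CPM in WT members, 581 CPM in P27NULL members and 271 CPM in S2CK members, against 3409, 5260.0 and 2269.8 CPM, with ratios of 0.126 (0.109 to 0.144), 0.110 (0.0970 to 0.125) and 0.119 (0.0995 to 0.142). Pomc (chr12:3954945-3960643) was at 17081, 15233 and 16653 CPM against 139616, 123334 and 129157 CPM, with ratios of 0.122 (0.120 to 0.125), 0.124 (0.121 to 0.127) and 0.129 (0.126 to 0.132). A Pomc UMI was seen in 93.1%, 96.2% and 100% of members, and in 98.3%, 99.5% and 100% of other barcodes. Without the members marked by other cell types the ratios were lower, at 0.0157, 0.0497 and 0.0300 for Pomc and 0.00698, 0.0323 and 0.0241 for Pcsk2, so the marked members carried most of both transcripts. Pcsk1n, an inhibitor of prohormone convertases, was at 1181, 1422 and 596 CPM against 5325, 4515 and 4275 CPM, with ratios of 0.222, 0.315 and 0.139 that were 0.0255, 0.0574 and 0.0415 without the marked members.

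The granule proteins chromogranin A and secretogranin II differed from the rest of that list between libraries. Chga was at 483 CPM in WT members, 2900.4 CPM in P27NULL members and 198 CPM in S2CK members, against 1886, 2789.7 and 1669.7 CPM, and Scg2 at 625, 1178 and 99.0 CPM against 1187, 1243 and 896 CPM, so in P27NULL members the ratios were 1.04 and 0.947. Without the marked members they were 0.106, 0.0488 and 0.0164 for Chga and 0.0115, 0.0684 and 0.0457 for Scg2, low in all 3 libraries. The 10 genes lowest in members outside the rule were Prl, Hbb-bs, Calb1, Pcsk2, Pomc, C1qc, Syt1, Hopx, Pkib and Enc1, which include hormone, haemoglobin and macrophage genes and, in Calb1 and Syt1, genes of calcium buffering and vesicle release. The rule limits the macrophage genes C1qa and C1qb, so the low C1qc partly follows from the rule. Calb1 was at 26.9, 35.3 and 45.2 CPM against 236, 319.9 and 618 CPM, and Syt1 at 53.8, 70.5 and 30.1 CPM against 381, 497 and 405 CPM. Hopx, a homeodomain protein, was at 33.1, 25.9 and 32.3 CPM against 243, 181 and 253 CPM. Without the marked members 0, 5 and 4 UMIs of Calb1, 6, 7 and 4 of Syt1 and 2, 1 and 6 of Hopx were left in WT, P27NULL and S2CK. Prl, the hormone of lactotrophs, was at 12.4, 23.5 and 286 CPM against 4236, 812 and 4727 CPM, and 98 of its 133 UMIs in S2CK members came from 1 member.

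**Figure D3:**
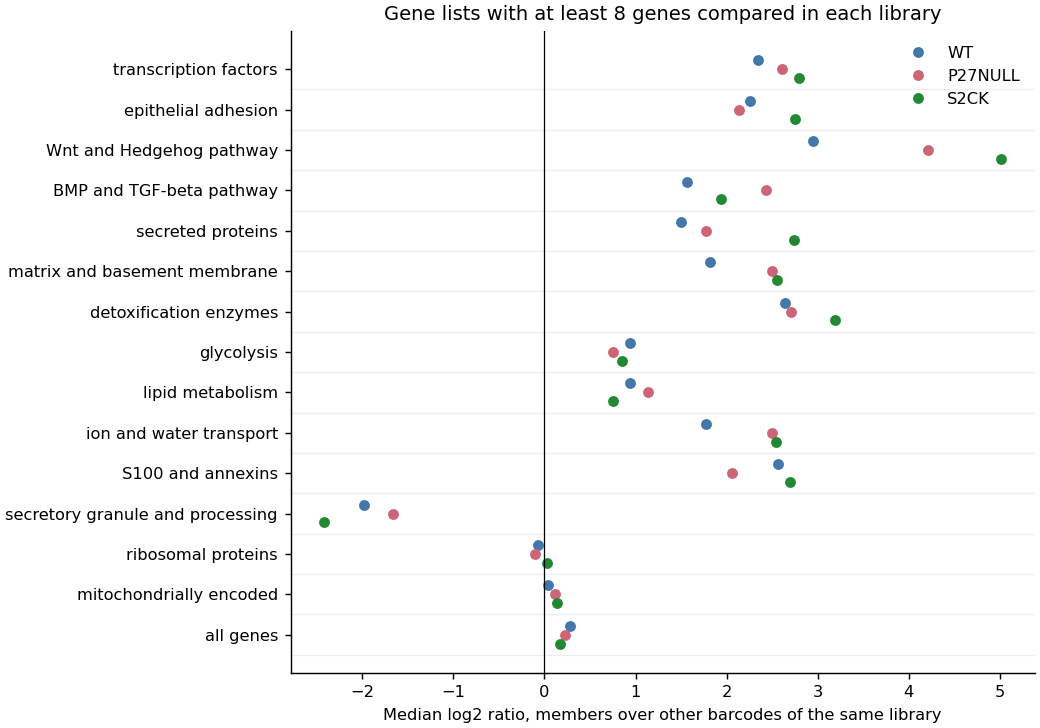
Median log2 ratio of members over other barcodes of the same library for each gene list with at least 8 genes compared in every library, in WT, P27NULL and S2CK; medians are over the compared genes, and genes that reached the minimum only through members raise them. Detoxification enzymes lay at 2.64 to 3.18 and secretory granule genes at -2.41 to -1.66, while all genes lay at 0.18 to 0.28 and ribosomal protein genes at -0.10 to 0.03.

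Between P27NULL and WT, differences in members were first counted over all genes. Of 5950 genes with at least 20 UMIs in members of both libraries together, 245 (4.12%) were at least 2-fold higher in P27NULL and 182 (3.06%) at least 2-fold lower, and the median log2 ratio over all of them was -0.00. The BMP targets Id3 and Id1 were higher: Id3 had 47 UMIs in WT members and 169 in P27NULL members, a log2 ratio of 2.03 (1.55 to 2.53), and Id1 had 29 and 71 UMIs, a log2 ratio of 1.47 (0.83 to 2.15). Without the marked members these were 2.34 (1.79 to 2.93) and 2.62 (1.75 to 3.61). In the other barcodes both were lower in P27NULL, by log2 ratios of -0.76 and -1.59. Klf4 had a log2 ratio of 1.49 (0.64 to 2.39), and Epha5, an ephrin receptor, of 1.71 (0.92 to 2.57). Hes1 was higher by less than 2-fold, with 0.90 (0.65 to 1.17), and was lower in the other barcodes, at -0.70. Aldh1a2 had a log2 ratio of 1.14 (0.54 to 1.76). Against WT, the P27NULL members without Xist gave log2 ratios of 2.27 (1.79 to 2.76) for Id3, 1.37 (0.69 to 2.07) for Id1 and 1.40 (0.52 to 2.34) for Klf4. These differences were thus also seen between cells called male, a name that rests only on the lack of a Xist UMI. The P27NULL members without Xist held 166 UMIs of Id3, 55 of Id1 and 33 of Klf4. The 18 P27NULL members with Xist held 3, 16 and 9, so the Id3 counts came almost only from cells called male. WT had no members with Xist to compare them with.

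Among the genes lower in P27NULL members, Ccnd2 had 115 UMIs in WT and 32 in P27NULL, a log2 ratio of -1.66 (-2.28 to -1.09), which was -1.72 (-2.65 to -0.89) without the marked members, and it was lower in the other barcodes too, at -1.84. Fxyd3 had -1.37 (-2.29 to -0.53) and Crb3, of apical junctions, -1.09. Spp1, the secreted protein osteopontin, had -2.07 (-3.30 to -1.02), but 17 of its 43 UMIs in WT came from 1 member, and it was at 0.00 (-1.54 to 1.49) without the marked members. Chga had the largest ratio of the named genes, 2.59 (2.38 to 2.80), which turned to -0.56 (-1.23 to 0.08) without the marked members and to -0.10 (-0.50 to 0.29) without those marked by gonadotroph genes alone. The CDK inhibitor gene Cdkn2c was higher in P27NULL members, with 1.45 (0.61 to 2.36). By list, the median log2 ratio was -0.32 for epithelial adhesion (17 genes), -0.37 for S100 and annexins (11), 0.36 for transcription factors (13), -0.01 for detoxification (24) and 0.06 for glycolysis (16).

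Between S2CK and P27NULL, 267 of 5656 genes (4.72%) were at least 2-fold higher in S2CK members and 598 (10.6%) at least 2-fold lower. This split depended on scaling and was 397 and 397 with TMM factors and 385 and 413 with totals that left out Pomc, mitochondrial and ribosomal protein genes. The median over all genes was -0.13, and 0.05 with TMM factors. S100a6 had 516 UMIs in P27NULL and 2091 in S2CK, a log2 ratio of 1.89 (1.75 to 2.03). Cbr2 had 56 and 236, a log2 ratio of 1.95 (1.52 to 2.40), and Krt17, a keratin of stressed and basal epithelia, had 6 and 59, a log2 ratio of 3.17 (1.96 to 4.67). C3, the complement component, had 8 and 100 UMIs, a log2 ratio of 3.52 (2.48 to 4.77). Spp1 had a log2 ratio of 3.63 (2.66 to 4.80), with 48 of its 122 UMIs in S2CK from 1 member, S100a4 of 3.04 (1.56 to 4.99) and Wnt4, a Wnt ligand, of 2.56 (1.40 to 3.95). Without the marked members these genes kept their direction, at 1.61 (1.44 to 1.77) for S100a6, 1.65 (1.15 to 2.17) for Cbr2, 3.38 (1.94 to 5.31) for Krt17 and 3.96 (2.34 to 6.28) for C3, while S100a4 and Wnt4 were left with 1 UMI each in P27NULL.

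Notch2 was also higher in S2CK members, with 1.21 (0.73 to 1.71), whereas the target Hes1 was lower, with -0.66 (-0.91 to -0.41). Against the 18 P27NULL members with Xist, log2 ratios were 2.27 (1.92 to 2.64) for S100a6 and 3.17 (1.79 to 5.05) for Cbr2, while Id3 turned from -1.05 to 2.17 (0.58 to 4.48), because only 3 of the 169 Id3 UMIs of P27NULL were in those members. Lower in S2CK members were Cga, with 4 UMIs against 2543, at -9.44 (-11.32 to -8.08), Chga, at -3.87 (-4.19 to -3.57), Scg2, at -3.57 (-4.04 to -3.14), and Sfrp5, at -2.58 (-3.55 to -1.71). Without the gonadotroph-marked members Cga was at -1.92 (-4.05 to -0.13) and Chga at -0.59 (-1.02 to -0.15). Without any marked members Chga was at -2.32 (-3.65 to -1.17), Scg2 at -1.05 (-2.22 to 0.05) and Sfrp5 at -2.24 (-3.41 to -1.21). Cxxc4, an inhibitor of Wnt signalling, had -1.98 (-2.99 to -1.07), and the midkine gene Mdk -1.08 (-1.47 to -0.69). Igfbp2, a binding protein of insulin-like growth factors, had 23, 9 and 0 UMIs in members of WT, P27NULL and S2CK. Igfbp5 had -1.26. By list, the median log2 ratio was 0.83 for S100 and annexins (12 genes), 0.61 for secreted proteins (21), 0.49 for epithelial adhesion (18), -1.05 for secretory granule genes (17), which became -0.53 without gonadotroph-marked members, -0.03 for detoxification (25) and -0.13 for glycolysis (16).

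Sox2 is the gene that Cre can delete in 1 copy in S2CK. Members of WT, P27NULL and S2CK had 134, 112 and 66 UMIs of it, and the log2 ratio was -0.08 (-0.45 to 0.30) for P27NULL against WT and -0.89 (-1.35 to -0.44) for S2CK against P27NULL. Without the marked members these were 0.05 (-0.40 to 0.50) and -1.28 (-1.87 to -0.71), and against P27NULL members with Xist the second was -1.20. In the other barcodes the log2 ratios were -0.23 and -0.69, so S2CK was lower in cells outside the members as well. Counts of Sox2 here include transcripts of both copies and cannot show which cells recombined. Sox9 differed by 0.52 (-0.12 to 1.17) and -0.16 (-0.77 to 0.45), and both intervals include 0. Cdkn1b (chr6:134920401-134925525) differed by 0.27 (-0.48 to 1.03) between P27NULL and WT and by -1.85 (-3.04 to -0.80) between S2CK and P27NULL, although both latter libraries are labelled as lacking the gene. They were -0.48 (-1.64 to 0.60) and -0.90 (-2.40 to 0.51) without the marked members and -0.31 (-1.38 to 0.70) and -1.09 (-2.42 to 0.19) without the gonadotroph-marked members, so the sign of the first turned and these intervals include 0. In the other barcodes Cdkn1b was at -0.29 between P27NULL and WT.

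**Figure D4:**
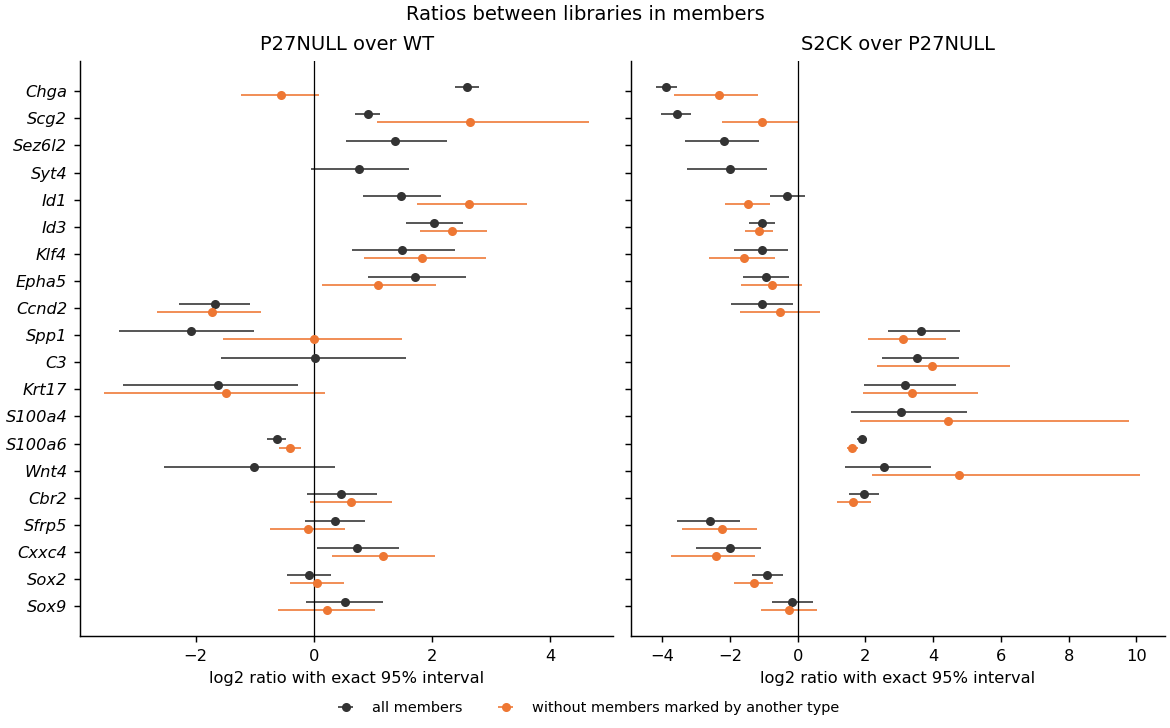
Log2 ratios between libraries in members, P27NULL over WT (left) and S2CK over P27NULL (right), with exact 95% intervals, for all members (dark) and without the members marked by another cell type (orange, shown where UMIs sufficed). Chga moved from 2.59 to -0.56 on the left, while Id3 was at 2.03 and 2.34; on the right S100a6 was at 1.89 and 1.61 and Sox2 at -0.89 and -1.28.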

How the data were processed

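Droplet libraries of mouse pituitary IL cells, 1 per genotype (WT, P27NULL and S2CK), were made with a 10x Genomics 3′ kit. The authors deposited a table of UMI counts per gene and barcode for each library. Per the submitters' processing notes the reads were processed with Cell Ranger 3.0.2 and STAR 2.5.1b on mm10, and Seurat 3 in R 3.6.0 was used; whether strand was used in counting is not given in the sources used here. The deposited counts were used as whole numbers with no normalization. The study's filter of at least 50 genes and at most 10% mitochondrial UMIs removed 0 barcodes. Doublets were kept. The lowest numbers of UMIs in a barcode were 502, 1005 and 1002 and those of genes 213, 502 and 517 in WT, P27NULL and S2CK.

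UMIs were summed over members and over other barcodes of each library in Python 3.11.15 (NumPy 2.4.6, SciPy 1.17.1) and divided by the summed totals to give CPM. Ratios were called at 2-fold where a gene had 10 UMIs, observed or expected from the other barcodes, in members, and between libraries where both together had 20. Exact Poisson, Clopper-Pearson and conditional binomial intervals are at 95%. Counts of 0 were set against a floor of 3 UMIs. TMM factors came from edgeR 4.0.16 in R 4.3.3, and figures from matplotlib 3.10.9. The code was tested on simulated data. Medians over lists are given for at least 8 genes.

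The members, the 19 gene lists (389 genes), the lists of other cell types and all thresholds were chosen with earlier results of these data known. Genes were named by this rule: the genes of the rule for members; Sox2, Sox9, Cdkn1b and Pomc; list genes higher in all 3 libraries and the up to 6 highest of each list (up to 3 for lists of other cell types and of secretory granules); the 20 with the largest lowest ratio over the 3 libraries and at least 20 UMIs in members of each; the 10 with the smallest highest ratio and at least 20 expected UMIs; and, between libraries, the 5 list genes highest and the 5 lowest with at least 30 UMIs. Not all of these are described, some are not reported here, and others are named after their values were seen. The promoter motifs, and the alternatives that leave out members with at least 2 markers of another cell type, were chosen after seeing the data. Gene positions and promoter windows are from RefSeq (GRCm38.p6). The alternatives were other numbers of markers, barcode filters, scalings, minimums and folds, thinning to 1000 UMIs, P27NULL members restricted to those with or without Xist, comparison with melanotroph-marked barcodes, and leaving out the deepest 10% of members.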

Additional observations from a re-analysis of the deposited data

Results flagged for a closer look

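For 3 named genes the log2 ratio of P27NULL to WT was at least 1 in members and at least 0.5 the other way in the other barcodes, with both counting intervals clear of 0. These differences were not tested with replicates because each genotype is 1 library. Id1 had a log2 ratio of 1.47 in members and -1.59 in other barcodes, a difference of 3.07. Id3 had 2.03 and -0.76, a difference of 2.79. Epha5 had 1.71 and -0.64, a difference of 2.36. In members called male the log2 ratios were 1.37 (0.69 to 2.07), 2.27 (1.79 to 2.76) and 1.63 (0.80 to 2.52), and without the members marked by another cell type they were 2.62 (1.75 to 3.61), 2.34 (1.79 to 2.93) and 1.08 (0.13 to 2.07). P27NULL members called male held 55, 166 and 41 UMIs of Id1, Id3 and Epha5. Those called female held 16, 3 and 11, with no female members in WT to set them against. Smaller or less certain values of opposite sign included Hes1, at 0.90 in members and -0.70 (-1.04 to -0.36) in other barcodes, Klf4, at 1.49 and -0.48 (-1.12 to 0.18), and Aldh1a2, at 1.14 and -0.60 (-1.85 to 0.68). The part of sex, animal pool and cell composition of the other barcodes in these differences was not tested.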

How the results depend on the processing

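With 1 library per genotype there was no replicate to leave out, and counting error is the lower limit of the true error. No paired analysis was possible because each genotype is 1 library.

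The share of barcodes that were members was 5.30% in WT and 1.88% in P27NULL with 4 or more markers, 7.82%, 3.30% and 2.67% (S2CK) with 2 or more, and 5.22% and 1.73% (WT, P27NULL) after thinning to 1000 UMIs. The shares with a Sox2 UMI after thinning were 32.8%, 23.8% and 11.4%, and with a Sox9 UMI 8.20%, 9.52% and 4.29%.

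Counts at least 2-fold lower in WT, P27NULL and all 3 libraries were 993, 878 and 450 with the total that leaves out Pomc, mitochondrial and ribosomal protein genes, and 1089, 1002 and 482 with TMM factors. In WT, P27NULL, S2CK and all 3, higher counts were 570, 464, 329 and 188 after thinning, 497, 362, 436 and 203 with the minimum set from the whole library, 5542, 6640, 7090 and 3638 with no minimum, and 867, 822, 976 and 488 at a fold of 3. Lower counts in the same order were 200, 196, 138 and 59 after thinning, 1495, 1323, 1703 and 488 with no minimum, and 355, 304, 415 and 159 at a fold of 3. Fewer UMIs or a stricter minimum or fold leave fewer genes by construction.

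Log2 ratios of at least 1 in size that changed direction were those of Cga, at 0.64 in S2CK with 2 or more markers and at -5.53 and -5.30 in P27NULL without gonadotroph-marked and without any marked members, Cst3 in WT and Prl in S2CK, at 0.31 and 2.94 against melanotroph-marked barcodes, Chga between P27NULL and WT, at -0.10 and -0.56 without those same members, and Id3 between S2CK and P27NULL, at 2.17 against P27NULL members with Xist. That value set 89 Id3 UMIs of all S2CK members against 3 in the P27NULL members with Xist. The P27NULL to WT median of secretory granule genes turned from 0.30 (0.16 to 0.91) to -0.048 with 2 or more markers, and was 0.96 without the deepest 10% of members. That of secreted proteins went from -0.07 to 0.40 after thinning and to 0.20 without any marked members. For matrix genes it went from -0.12 to 0.32 without any marked members. The S2CK to P27NULL median of matrix genes was -0.45 without the deepest 10% of members and -0.56 without any marked members, and that of detoxification genes -0.31 without gonadotroph-marked members. Where the cause is not given by construction it was not tested. Of all alternative values for named genes, 5523 moved by less than their counting interval, 1042 moved further and 8 of those at least 2-fold changed direction. Differences between libraries under 2-fold that changed sign and left their counting interval were, for P27NULL against WT without any marked members, Pomc (from -0.17 to 1.49), Ccnd1 (-0.57 to 0.66), Cdkn1b (0.27 to -0.48) and Clu (-0.0064 to 0.14), and without gonadotroph-marked members Pcsk1n (0.27 to -0.22) and Clu (to 0.23). For S2CK against P27NULL they were Pomc (0.13 to -0.66), Ccnd1 (0.43 to -0.56), Cldn3 (0.39 to -0.036), Ldhb (0.40 to -0.030) and Mgst1 (0.085 to -0.18) without any marked members, and Pomc (to -0.097) and Mgst1 (to -0.27) without gonadotroph-marked members.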

Other observations

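Some members held transcripts of contractile proteins. Acta2, smooth muscle actin, was at 26.9, 84.6 and 138 CPM in members of WT, P27NULL and S2CK, against 1.15, 1.98 and 0.533 CPM in other barcodes, and was seen in 4.62%, 13.3% and 10.00% of members. Tagln, an actin-binding protein of smooth muscle, was at 47.6, 37.6 and 105 CPM against 3.69, 5.14 and 3.09 CPM. Notch3, a receptor of pericytes and other cells, was at 16.6, 37.6 and 30.1 CPM against 0.637, 0.594 and 0.586 CPM. Of the same pericyte list, Rgs5 had ratios of 1.12, 0.972 and 1.46 and Kcnj8 had 1, 0 and 0 UMIs in members. The summed pericyte list was at 106, 167 and 284 CPM in members against 18.5, 16.6 and 13.5 CPM in other barcodes, and 7, 5 and 6 members had at least 2 of its 5 genes. Their part in the result was not tested. The list was drawn up for pericytes with earlier results of these data known, and these genes are named after their values were seen.

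The barcodes with at least 3 markers that were kept out for genes of macrophages, endothelium or connective tissue, 10, 3 and 8 in number, had a median of 8, 14 and 11 of the 20 leading SC genes, against 7, 7 and 8 in members.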
